A study of Homo sapiens with 12 samples.

Results

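The ISG15 conjugation system was followed through 4 lines of MIA PaCa-2 cells, an established human pancreatic ductal adenocarcinoma line. Its genes were taken by symbol from the deposited gene table: ISG15, UBA7, UBE2L6, HERC5, HERC6 and USP18, which are 6 of the 63086 genes listed. Each line was sequenced as 3 biological replicates, 12 libraries in all, and the values, called normalised counts, are reads of a gene after scaling of the library by its size factor. The study asked which transcripts of these cells depend on TIMP1, the tissue inhibitor of metalloproteinases 1.

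WT was the unmanipulated line. CRISPR Control went through the editing procedure and carried only a silent point mutation. TIMP1 KO 1 and TIMP1 KO 2 (KO 1 and KO 2 below) were knockout clones made with CRISPR-Cas9 and a pair of guide RNAs against different stretches of exon 4 of TIMP1. Neither the labels nor the methods name a further treatment of these lines, interferon included. Each knockout line is a clone, so a difference between KO 1 and KO 2 cannot be told apart from a difference between clones. The same limit holds for a knockout line against WT or CRISPR Control, where clone and knockout cannot be told apart. The labels do not say whether the replicates of a line were separate cultures, and p-values then measure only the spread between these libraries, which may be technical.

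ISG15 is a small ubiquitin-like protein that is strongly induced by type I interferon. It is joined to lysines of target proteins by a cascade of an activating enzyme (E1), a conjugating enzyme (E2) and a ligase (E3), and the protease USP18 removes it again. The genes of the cascade are themselves interferon-stimulated genes, and ISG15 is also known as a free protein inside and outside the cell. USP18 has a separate role at the interferon receptor subunit IFNAR2, where it dampens signalling, and in human cells free ISG15 is known to stabilise it.

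Interferon acts on many of its target genes through the ISGF3 complex, which holds STAT2 and IRF9 and binds the interferon-stimulated response element. RefSeq windows (GRCh38.p14) of 250 bases before and 50 bases after the start were given for 4 of the 6 genes: ISG15, UBE2L6, HERC5 and HERC6. USP18 and UBA7 were not matched. The core of the element, the letters GAAA and GAAA with 2 bases of any kind between them, was searched on both strands, and it was in the windows of ISG15 and HERC5. The stretches that hold these matches are shown because they are the only ones found among the 6 genes, with the matched letters in capitals. The stretch of ISG15 is chr1:1013347-1013446 on the plus strand, and that of HERC5 is chr4:88456969-88457068 on the plus strand. Both run from 150 to 51 bases before the RefSeq start, which for ISG15 is chr1 position 1013497. The GENCODE span of ISG15 given with its values begins further upstream because of longer transcripts, so the stretch of ISG15 lies inside that span, outside its exons.
ISG15: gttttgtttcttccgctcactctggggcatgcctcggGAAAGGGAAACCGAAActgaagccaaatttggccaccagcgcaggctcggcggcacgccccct
HERC5: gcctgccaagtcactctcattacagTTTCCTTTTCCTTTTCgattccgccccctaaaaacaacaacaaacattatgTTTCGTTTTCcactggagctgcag

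In ISG15 a pair of matches that share 4 bases began 113 and 107 bases before the start, both on the strand of the gene. In HERC5 there were 3 matches, all on the opposite strand, with their first letters 125, 119 and 74 bases before the start. The first 2 of these share 4 bases, too. The windows of HERC6 and the 2 windows of UBE2L6 held no match. Of all 35116 RefSeq windows of the same length, 3.57% held at least 1 match. The core of the gamma-activated site, TTCNNNGAA, was in none of the windows of the 4 genes and in 7.66% of all windows. As the second motif was not found, no overlap between the motifs arose. A match is a description of letters, and a missing match says only that these letters are not in the window.

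All 6 genes were higher in both knockout lines than in WT, and far higher in KO 2 than in KO 1. Against WT the 6 genes stood 2.60-fold to 4.86-fold higher in KO 1 and 11.5-fold to 32.3-fold higher in KO 2 (limma estimates), where 18% and 27.1% of all genes tested were higher in KO 1 and in KO 2. CRISPR Control was also above WT for ISG15, UBE2L6, HERC5 and USP18, by 1.36-fold to 2.82-fold, in a comparison in which 27.2% of all genes tested were higher. UBA7 and HERC6 did not pass the test in that line. The mean levels had the same order for each of the 6 genes, WT, CRISPR Control, KO 1 and KO 2, and the first 2 of these did not differ beyond their spread for UBA7 and HERC6.

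**Figure D1:**
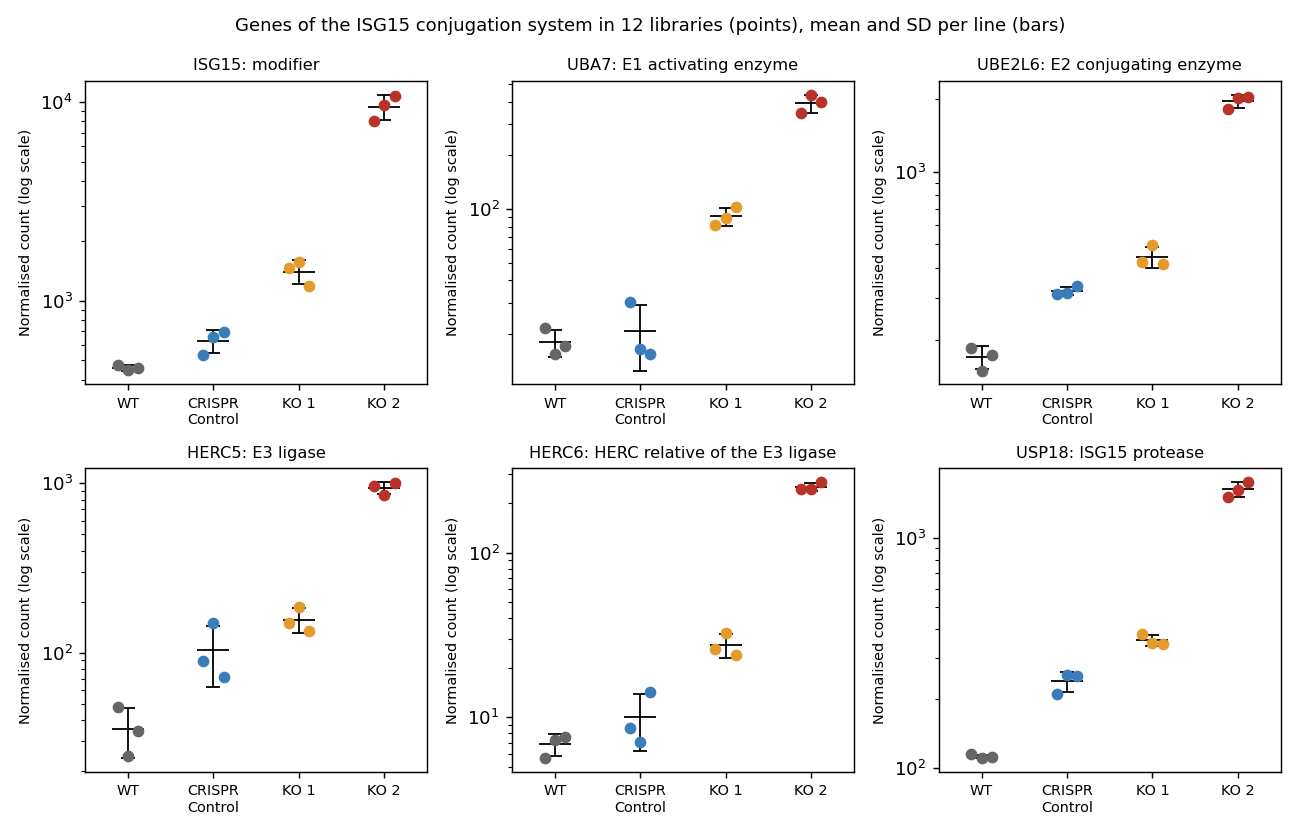
Normalised counts (log scale) of the 6 genes in each of the 12 libraries, with points for libraries and black bars for the mean and SD of a line (n = 3). For each gene the 3 KO 2 libraries lie above the 9 other libraries, and the KO 1 libraries lie between CRISPR Control and KO 2 except for HERC5, where KO 1 and CRISPR Control overlap.

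The knockout label was checked first with the targeted gene, TIMP1 (ENSG00000102265.12, chrX:47582408-47586789). Its normalised counts in replicates 1, 2 and 3 were 3837, 3290 and 3532 for WT, 2285, 2826 and 2959 for CRISPR Control, 1562, 1624 and 1613 for KO 1, and 1136, 1192 and 1155 for KO 2. All 6 knockout libraries were below all 6 libraries of WT and CRISPR Control, and CRISPR Control was below WT. TIMP1 RNA was lowered, not lost, and the protein was not analysed here. The libraries held 26908701 to 36093563 reads in genes. The keratins KRT8 and KRT18 and vimentin (VIM) were abundant in all lines, with line means of at least 16912 for each. The 3 mesenchymal markers VIM, CDH2 and ZEB1 did not move together. On the log2 scale against WT (limma), KO 1 gave 0.40 for VIM, -2.60 for CDH2 and 0.07 for ZEB1. KO 2 gave 0.04, -0.57 and 0.03 for the same genes, and CRISPR Control gave -0.28, 0.96 and -0.37. KRT19 had line means from 4583 in CRISPR Control to 52497 in KO 2. The summed level of the acinar genes PRSS1, CPA1 and CELA3A was at most 11.8 in any library. That of the endothelial genes PECAM1 and CDH5 was at most 24.2. The summed level of 5 epithelial markers was 56497 to 72652 in CRISPR Control and at least 174138 in the libraries of the other lines. Of all genes tested, 27.2% were higher and 26.3% lower in CRISPR Control than in WT. The shares were 18% and 17.5% in KO 1 and 27.1% and 27.9% in KO 2. Of the 5 epithelial markers, 0 were higher and 3 lower in CRISPR Control than in WT. In KO 1, 1 was higher and 1 lower, and in KO 2, 1 was higher and 4 lower (limma). KRT19 was the higher one in both knockout lines (0.65 and 1.74 on the log2 scale) and CDH1 the lowest (-3.23 and -3.81). The part of these differences in the results was not tested.

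Leukocyte genes were looked at because interferon-stimulated genes are also expressed by immune cells. The summed normalised count of 5 leukocyte markers ran from 38.2 to 55.2 in WT, from 37.4 to 40.3 in CRISPR Control, from 76.8 to 92.9 in KO 1 and from 159.6 to 174.5 in KO 2, so it moved with the knockout lines. CD14, with line means of 36.2, 36.5, 83.0 and 160.6 in the same order, made up most of this sum. The defining leukocyte genes PTPRC, CD3E, NKG7 and LYZ had means of at most 5.17 in any line, and CD3E was at 0 in the libraries of WT, CRISPR Control and KO 1. The part of CD14 in the results was not tested. In bulk RNA more expressing cells and more RNA per cell cannot be told apart.

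The modifier itself, ISG15 (ENSG00000187608.10), lies on the plus strand at chr1:1001138-1014540 (GRCh38), where the annotation also places a pseudogene and a long noncoding RNA on the opposite strand. Its normalised counts in replicates 1, 2 and 3 were 475, 445.5 and 457 in WT and 532, 657 and 694.5 in CRISPR Control. The values were 1456, 1558 and 1184 in KO 1 and 8013, 9615 and 10751 in KO 2. No libraries of different lines overlapped, and the KO 2 libraries stood far above the rest. The mean of WT was 459 ± 15.1 and that of CRISPR Control 628 ± 85.1, while KO 1 averaged 1399 ± 194 and KO 2 9460 ± 1376 (SD, n = 3). By limma ISG15 was 3.02-fold higher in KO 1 than in WT (95% interval 2.55 to 3.59, adjusted p 4.36e-09) and 20.4-fold higher in KO 2 (17.2 to 24.2, adjusted p 1.51e-15). In CRISPR Control it was 1.36-fold higher (1.14 to 1.61, adjusted p 0.00408). The overlapping long noncoding RNA, ENSG00000224969, had a mean normalised count of 3.23. The strand setting of the counting is not given in the sources used here, so reads of the pair on opposite strands cannot be told apart.

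UBA7 (ENSG00000182179.13, chr3:49805209-49813953, minus strand) codes for the E1 enzyme, which activates ISG15 at the first step. Its normalised counts were 21.5, 15.5 and 17.2 in WT, 30.2, 16.6 and 15.4 in CRISPR Control, 82.1, 88.9 and 102.5 in KO 1, and finally 345, 434 and 397.5 in KO 2. WT and CRISPR Control overlapped, whereas each knockout line was separate from them and from the other. The difference of CRISPR Control from WT was 0.14 on the log2 scale with a 95% interval from -0.35 to 0.63 (limma, adjusted p 0.637), and its sign rested on CRISPR Control replicate 1, the highest of that line, without which it was -0.15. In KO 1 UBA7 was 4.86-fold higher than in WT (95% interval 3.47 to 6.82), and in KO 2 it was 20.7-fold higher (14.8 to 29.1). The adjusted p of limma was 3.17e-07 for KO 1 and 1.61e-11 for KO 2. A microRNA gene inside UBA7, MIR5193, was at 0 in all libraries.

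UBE2L6 (ENSG00000156587.16, chr11:57551656-57568284, minus strand) codes for the E2 enzyme that takes ISG15 over from UBA7. Its normalised counts were 187, 150.0 and 174 in WT and 313, 314 and 335 in CRISPR Control. The level was 422, 496 and 412.5 in KO 1 and 1822, 2019 and 2035 in KO 2. Again the 4 lines did not overlap, and CRISPR Control stood closer to KO 1 than to WT on the log2 scale. Against WT, UBE2L6 was 2.60-fold higher in KO 1 (limma, 95% interval 2.23 to 3.03, adjusted p 6.93e-09), 11.5-fold higher in KO 2 (9.84 to 13.4, adjusted p 6.34e-15) and 1.88-fold higher in CRISPR Control (1.62 to 2.20, adjusted p 7.66e-07). The estimate for KO 2 was the smallest of the 6 genes. KO 1 exceeded CRISPR Control by 0.46 on the log2 scale (limma, adjusted p 0.000865).

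HERC5 (ENSG00000138646.9, chr4:88457119-88506163, plus strand) codes for the main E3 ligase of ISG15 in human cells, a HECT-type enzyme that works at ribosomes. Its normalised counts were 47.5, 24.6 and 34.3 in WT, 89.0, 149 and 71.4 in CRISPR Control, 150.2, 186 and 134 in KO 1, and 960.1, 851 and 997 in KO 2. All CRISPR Control libraries were above all WT libraries, and CRISPR Control replicate 2 lay within the range of KO 1. Against WT, HERC5 was 2.82-fold higher in CRISPR Control (limma, 95% interval 2.00 to 3.98, adjusted p 3.43e-05), the largest of the 6 estimates for that line. It was 4.43-fold higher in KO 1 (3.14 to 6.26, adjusted p 8.96e-07) and 26.5-fold higher in KO 2 (18.8 to 37.4, adjusted p 6.89e-12). KO 1 against CRISPR Control gave 0.65 on the log2 scale (95% interval 0.16 to 1.15, limma adjusted p 0.0223). That call was lost with DESeq2 (0.60, adjusted p 0.059) and without CRISPR Control replicate 1 (0.58, adjusted p 0.0621), CRISPR Control replicate 3 (0.43, adjusted p 0.133) or KO 1 replicate 2 (0.53, adjusted p 0.0976).

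HERC6 (ENSG00000138642.16, chr4:88378739-88443097, plus strand) is the neighbour and close relative of HERC5, and its counterpart is the main ISG15 ligase of the mouse. It had the fewest reads of the 6 genes, with normalised counts of 5.66, 7.27 and 7.62 in WT, which are 5, 8 and 8 reads. The counts were 8.64, 7.12 and 14.3 in CRISPR Control, 25.9, 32.6 and 23.9 in KO 1, and 244, 243 and 267 in KO 2. WT and CRISPR Control overlapped, KO 1 was above both, and KO 2 was far above all others. Against WT, HERC6 was 32.3-fold higher in KO 2 (limma, 95% interval 21.7 to 48.2, adjusted p 2.48e-11) and 3.62-fold higher in KO 1 (2.43 to 5.39, adjusted p 3.1e-05). Its place among the 6 genes depended on the few WT reads: the estimate for KO 2 was above that of HERC5 on this scale, but with a pseudocount of 10 it was 3.96 on the log2 scale against 4.41 for HERC5 and 4.32 for ISG15, and without WT replicate 1 it was 4.90 against 4.96 for HERC5. The ratio of the line means was 36.7 for KO 2, since limma worked on log2(normalised count + 1), which lowers the change of a gene with few reads. CRISPR Control gave 0.44 on the log2 scale (95% interval -0.13 to 1.02, adjusted p 0.183), the same estimate as for ISG15 in that line, but with an SE of 0.27 against 0.12 for ISG15.

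USP18 (ENSG00000184979.12, chr22:18150118-18177397, plus strand) codes for the protease that takes ISG15 off its targets. Its normalised counts were 114, 111 and 111 in WT, 209.9, 254 and 249.5 in CRISPR Control, 381, 349 and 345 in KO 1, and 1505, 1612 and 1740 in KO 2. Here the 4 lines did not overlap, and the WT replicates differed least of all the genes, with an SD of 1.63% of their mean. Against WT, USP18 was 2.10-fold higher in CRISPR Control (limma, 95% interval 1.80 to 2.45, adjusted p 8.88e-08), 3.17-fold higher in KO 1 (2.72 to 3.70, adjusted p 4.52e-10) and 14.3-fold higher in KO 2 (12.3 to 16.6, adjusted p 1.57e-15). USP41, a near copy of USP18, was at 0 in all libraries. Reads that fit both copies equally could have been left out of the counting, and this was not tested.

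**Figure D2:**
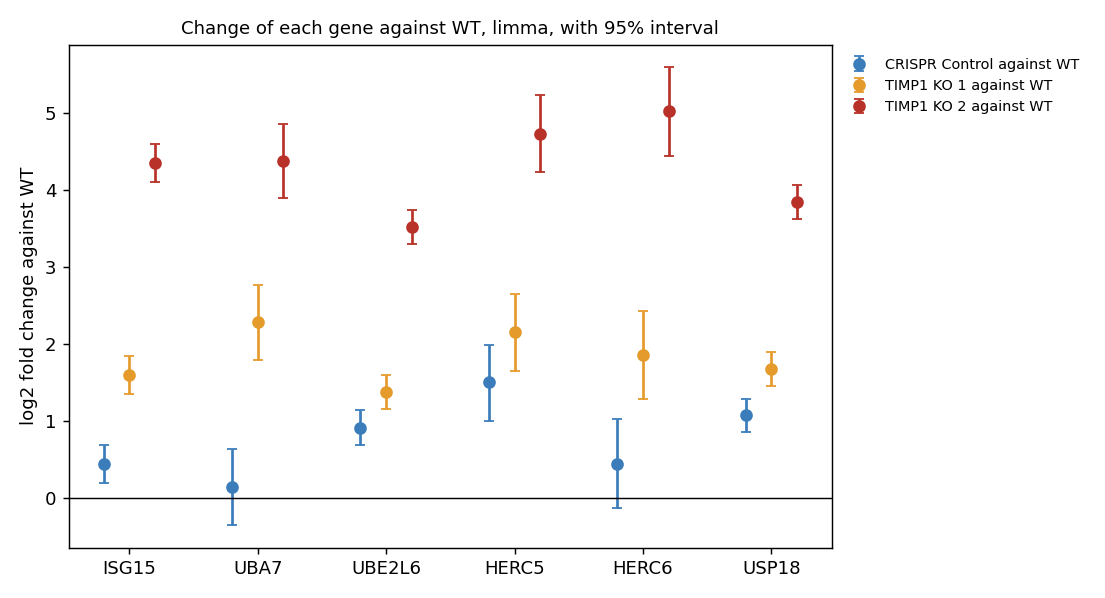
Log2 fold change against WT of each gene in CRISPR Control, KO 1 and KO 2, with the 95% interval of limma (3 libraries per line). KO 2 lies between 3.52 and 5.02 and KO 1 between 1.38 and 2.28, while the interval of CRISPR Control includes 0 for UBA7 and HERC6 only.

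Counted together, 6 of 6 genes were higher in KO 1 than in WT, where 35.5% of the 15987 genes tested passed in either direction and 18% passed as higher. In KO 2 against WT it was again 6 of 6, with 55% of all genes passing and 27.1% as higher. The median change of the 6 genes was 1.76 in KO 1 and 4.36 in KO 2 on the log2 scale, and that of all genes tested was 0.00 and -0.01. Both comparisons used the same WT libraries. Among the 15987 genes ordered from the highest change in KO 2 against WT, HERC6 was at place 50, HERC5 at 61, UBA7 at 82, ISG15 at 84, USP18 at 117 and UBE2L6 at 157. In KO 1 against WT the 6 genes took places between 97 (UBA7) and 387 (UBE2L6).

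All 6 genes passed the filter of a mean normalised count of at least 10. HERC6 had a mean of 6.85 in WT and 10.0 in CRISPR Control and passed through the knockout lines, so a difference was built into its passing, and its call was the same with no filter. All 3 KO 2 libraries were above the 9 others for 6 of 6 genes, an order that 13.2% of all genes tested also had. All 6 knockout libraries were above the 6 libraries of WT and CRISPR Control for 5 of 6 genes (12.3% of all genes), the exception being HERC5.

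CRISPR Control against WT shows how far the genes moved in 1 edited line with no knockout, and it does not measure the spread among such lines. There 4 of 6 genes were higher, where 53.4% of all genes tested passed, 27.2% as higher. The median of the 6 was 0.68 on the log2 scale and that of all genes 0.01. With a minimum absolute log2 fold change of 1 the count was 2, HERC5 and USP18, where 14.7% of all genes passed, 7.14% as higher. The study called a gene TIMP1-dependent if both knockout lines, but not CRISPR Control, were different from WT. With the same rule by limma, and a shared direction, UBA7 and HERC6 were in this intersection, 2 of 6 genes, where 10.2% of all genes tested were. The other 4 were left out because they were also higher in CRISPR Control. HERC6, with few reads in WT and CRISPR Control, had the same estimate there as ISG15, 0.44 on the log2 scale. Its SE was 0.27 against 0.12 for ISG15, so its place in the intersection does not show a smaller change. With the minimum of 1 on the log2 scale the intersection held 4 of the 6, all but HERC5 and USP18, where 2.72% of all genes tested were in it.

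Against CRISPR Control in place of WT, 6 of 6 genes were higher in KO 1 (63% of all genes passed, 31.7% as higher), with a median of 0.90 on the log2 scale. The range ran from 0.46 for UBE2L6 to 2.14 for UBA7, and with a minimum of 1 on the log2 scale 3 of 6 passed, ISG15, UBA7 and HERC6, where 21.2% of all genes passed, 12% as higher. In KO 2 against CRISPR Control 6 of 6 were higher (67.7% of all genes passed, 33.3% as higher), with changes from 2.61 for UBE2L6 to 4.57 for HERC6. The mean of the knockout lines against the mean of WT and CRISPR Control gave 6 of 6 as well (65.9%, with 32.9% as higher), from 1.99 for UBE2L6 to 3.26 for UBA7. That test took libraries, not lines, as its unit. It therefore does not measure the spread between lines, and clone and knockout cannot be told apart in it.

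KO 2 was compared directly with KO 1, since both are labelled as knockouts of TIMP1, and the methods place the guides in the same exon. All 6 genes were higher in KO 2, where 38.2% of all genes tested passed and 18.1% as higher. On the log2 scale the difference was 3.16 for HERC6 (95% interval 2.58 to 3.73, 8.94-fold), 2.76 for ISG15 (2.51 to 3.00, 6.75-fold) and 2.58 for HERC5 (2.08 to 3.08, 5.98-fold). It was 2.17 for USP18 (1.95 to 2.39, 4.50-fold), 2.14 for UBE2L6 (1.92 to 2.36, 4.42-fold) and 2.09 for UBA7 (1.60 to 2.58, 4.26-fold). The largest adjusted p of these 6 by limma was 9.42e-07. TIMP1 itself was 0.726-fold as high in KO 2 as in KO 1 (limma, adjusted p 0.000398).

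Levels were compared between the genes per kilobase of merged exons. On that scale the modifier was the most abundant in every line, with a mean of 529.8 normalised counts per kilobase for ISG15 in WT and 10911 in KO 2. The E2 enzyme UBE2L6 followed with 82.6 in WT and 950.0 in KO 2, and the protease USP18 with 27.4 and 395. The ligase HERC5 stood at 7.44 and 196.5, the E1 enzyme UBA7 at 3.96 and 86.2, and HERC6 at 1.19 and 43.5. The order of the 6 genes was thus the same in WT and in KO 2. The 95% interval of the change in KO 2 against WT on the log2 scale, 4.23 to 5.23 for HERC5, lay above those of UBE2L6 (3.30 to 3.74) and USP18 (3.62 to 4.06).

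The balance within the system was followed by ratios taken inside each library, which do not depend on the size factor. The ratios were chosen after the values had been seen. There were 3.88 to 5.81 normalised counts of ISG15 for each of its protease USP18 in the knockout lines (geometric means of KO 1 and KO 2), against 4.09 in WT and 2.63 in CRISPR Control. The KO 2 libraries ran from 5.32 to 6.18 and did not overlap with WT at 4.02 to 4.16, whereas KO 1 at 3.43 to 4.47 enclosed it. CRISPR Control, at 2.54 to 2.78, lay below all other libraries.

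Relative to the E2 enzyme, ISG15/UBE2L6 had a geometric mean of 2.71 (WT), 1.95 (CRISPR Control), 3.14 (KO 1) and 4.80 (KO 2). The KO 2 libraries were above all others. Relative to the E1 enzyme the picture differed, since ISG15/UBA7 was 25.7 in WT, 24.1 in KO 2 and 15.3 in KO 1, with the KO 1 libraries (11.6 to 17.7) below those of WT (22.1 to 28.8). CRISPR Control was wide, from 17.6 to 45.1. The ratio of the ligase pair, HERC5/HERC6, stood at 5.03 (WT), 10.3 (CRISPR Control), 5.70 (KO 1) and 3.72 (KO 2), and its WT and CRISPR Control values rest on few reads of HERC6.

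Each of the 4 ratios was compared with WT in 3 lines by a two-sided exact permutation test, which cannot go below 0.1 with 3 libraries against 3, so none of these 12 comparisons could pass. The exact p was 0.1 for ISG15/USP18 in CRISPR Control and KO 2, for ISG15/UBE2L6 in CRISPR Control and KO 2, and for ISG15/UBA7 in KO 1. It was 0.7 for ISG15/USP18 in KO 1, a difference of -0.08 on the log2 scale.

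Genes that carry related functions were listed to see whether the change was shared by other ubiquitin-like systems. Of all genes tested, 17.5% were lower in KO 1 than in WT and 27.9% in KO 2. Of 8 other enzymes reported to act on ISG15, 1 was higher and 3 were lower in KO 2 than in WT, and 0 passed in either direction in KO 1. Their median change was -0.13 in KO 2 and 0.02 in KO 1 on the log2 scale. The highest was TRIM25, a ubiquitin ligase that can also transfer ISG15, at 0.83 (limma, SE 0.07, adjusted p 8.67e-09) in KO 2. Of the 4 HERC ligases other than HERC5 and HERC6, 3 could be tested, and 0 were higher and 1 was lower in KO 2, HERC2 at -0.67 (limma, adjusted p 0.00011). In KO 1, 0 of them were higher and 2 were lower. HERC3 was too low to test, with a mean normalised count of 0.606 in WT and 6.74 in KO 2.

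Of 9 E1 enzymes of ubiquitin and other ubiquitin-like modifiers, 2 were higher and 4 were lower in KO 2, with a range from -0.65 to 0.30, and 1 was higher and 4 were lower in KO 1. NAE1, a subunit of the NEDD8 activating enzyme, had the largest change in KO 2, -0.65 (limma, adjusted p 5.18e-07). Of 12 other E2 enzymes, 0 were higher and 3 were lower in KO 2, led by the NEDD8 enzyme UBE2M at -0.49 (limma, adjusted p 6.05e-05), and 0 were higher and 2 lower in KO 1. Of 14 other modifiers 13 could be tested. There 2 were higher and 4 were lower in KO 2 and 4 were higher and 1 was lower in KO 1, and UFM1, a modifier of ribosomes at the endoplasmic reticulum, had the largest change in KO 2, 1.12 (limma, adjusted p 1.23e-07). The medians of these 3 lists lay between -0.18 and 0.05 in KO 1 and between -0.11 and 0.00 in KO 2. UBD, which codes for the interferon-induced modifier FAT10, was at 0 in all libraries. No tested gene of these 5 lists reached the change of any of the 6 ISG15 genes in KO 2.

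In CRISPR Control against WT, where 26.3% of all genes tested were lower, these lists gave 3 higher and 1 lower for the other ISG15 enzymes, 1 and 1 for the HERC ligases, 3 and 2 for the E1 enzymes, 6 and 0 for the E2 enzymes and 7 and 2 for the modifiers.

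**Figure D3:**
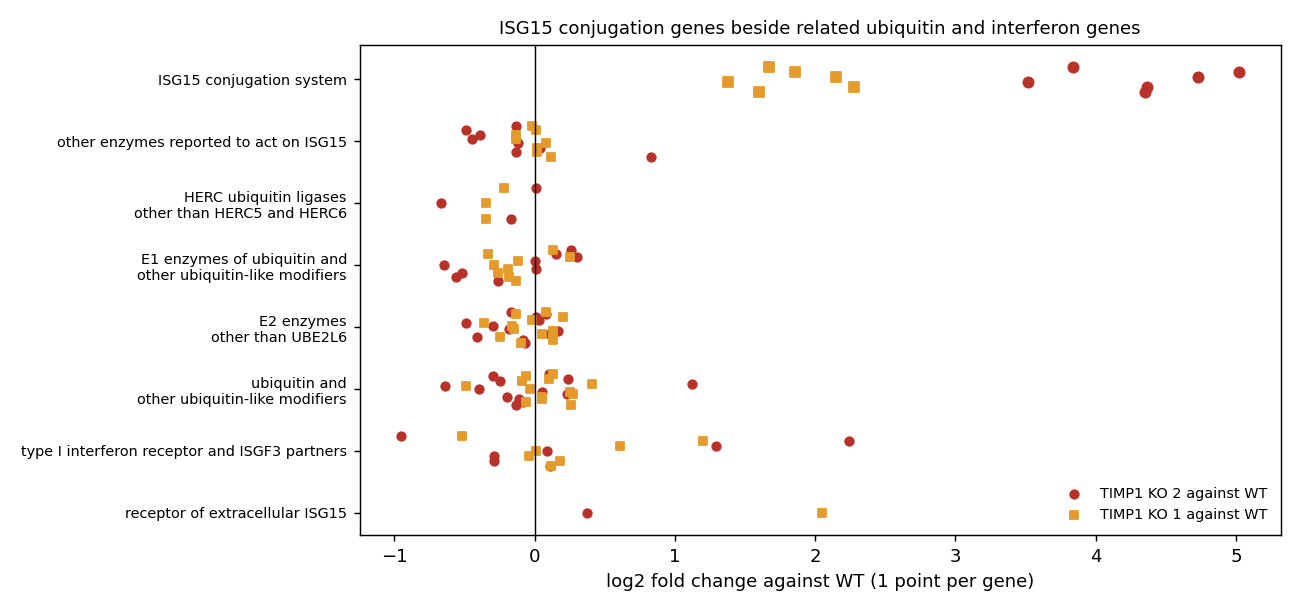
Log2 fold change against WT in KO 1 (squares) and KO 2 (circles), with 1 point per gene, for the 6 ISG15 genes (top) and for the listed related genes. In KO 2 the 6 genes lie between 3.52 and 5.02, and the listed genes between -0.95 and 2.24.

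Among 7 genes of the type I interferon receptor, the ISGF3 complex and USP18 partners, 2 were higher and 2 lower in KO 2 than in WT. Of all genes tested, 27.1% were higher and 27.9% lower in that comparison. IRF9, the DNA-binding subunit of ISGF3, changed by 2.24 (limma, SE 0.23, adjusted p 1.66e-07) and STAT2 by 1.29 (adjusted p 4.1e-11). In KO 1 IRF9 (1.20, adjusted p 0.000518) and STAT2 (0.61, adjusted p 2.64e-06) were higher as well. In CRISPR Control IRF9 (-0.76, adjusted p 0.00995) and STAT2 (-0.71, adjusted p 1.62e-07) were lower. Of the 7 genes, 1 was higher and 5 were lower in CRISPR Control, against 27.2% and 26.3% of all genes tested. In KO 1, 2 were higher and 1 was lower, against 18% and 17.5% of all genes tested. In CRISPR Control, where IRF9 and STAT2 were lower, ISG15, UBE2L6, HERC5 and USP18 were above WT. IRF9 had few reads in both lines, with a mean normalised count of 25.8 in WT and 14.6 in CRISPR Control. A link between these changes was not tested.

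The receptor subunits IFNAR1 (0.11 in KO 2, adjusted p 0.264) and IFNAR2 (-0.29, adjusted p 0.248) did not pass in KO 2. The lowest gene of this list was SKP2, a cell-cycle F-box protein known as a partner of USP18, at -0.95 in KO 2 (limma, adjusted p 4.8e-08) and -0.52 in KO 1 (adjusted p 0.000156). ITGB2, a chain of the integrin LFA-1 that binds extracellular ISG15, was higher in KO 1 at 2.05 (limma, adjusted p 2.28e-06) and gave 0.37 in KO 2 (adjusted p 0.207), where KO 2 was below KO 1 by -1.68 (adjusted p 2.24e-05). The other chain, ITGAL, was too low to test. STAT2, SKP2 and ITGB2 are named after their values were seen.

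Genes most like each of the 6 were found by the Euclidean distance over the changes of CRISPR Control, KO 1 and KO 2 against WT on the log2 scale, among the 15987 genes tested. These changes share the WT libraries, and the distance is a description over 3 values. UBE2L6 had the closest match, SP110, a nuclear body protein, at a distance of 0.06 (0.90, 1.35 and 3.47 in the 3 lines, against 0.91, 1.38 and 3.52 for UBE2L6). Next to it were ADRA1D at 0.09, with a mean normalised count of only 10.2, and ARHGAP22 at 0.24. For USP18 they were ST6GAL1 and SP100, both at 0.29, and ADRA1D at 0.42.

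The genes most like ISG15 were GBP3, a guanylate-binding protein, at 0.31, the clone-named gene AL031777.3 at 0.32 and LIMCH1 at 0.34. AL031777.3 and LIMCH1 had mean normalised counts of only 29.4 and 20.2. For UBA7 they were TNFSF10, which codes for the death ligand TRAIL, at 0.25, the clone-named gene AC073316.2 at 0.26 and APOL1 at 0.30. AC073316.2 had a mean normalised count of only 21.5. HERC6 was most like GBP4 (0.32), GBP2 (0.35) and ACSL5 (0.43). HERC5 had the most distant matches, IFIH1, the RNA sensor MDA5, at 0.45, and APOL3 and DDO, both at 0.53. The mean normalised count of DDO was only 25.9. Among the 6 genes themselves the closest pair was UBE2L6 and USP18 at 0.46, and the farthest was UBE2L6 and HERC6 at 1.64.

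Position was looked at because HERC6 and HERC5 lie side by side, 14.0 kilobases apart on chromosome 4. The nearest tested genes on either side of each of the 6 genes were taken, a rule chosen after the table had been seen. Beyond the HERC pair, PPM1K, a mitochondrial phosphatase 94.0 kilobases below HERC6, was higher in KO 1 (2.28, limma adjusted p 4.41e-08) and KO 2 (3.69, adjusted p 2.25e-11) and lower in CRISPR Control (-0.90, adjusted p 0.000969). NAP1L5, 189.8 kilobases above HERC5, was higher in CRISPR Control (1.55), KO 1 (1.63) and KO 2 (3.77), with adjusted p by limma of at most 0.000118. On chromosome 4 both tested genes that flank the HERC pair were therefore higher in both knockout lines, as were 13.6% of all genes tested.

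At the other 4 genes it was not. HES4, 1.0 kilobase from ISG15, changed by -0.23 in KO 2 (limma, adjusted p 0.189) and AGRN on its other side by 0.34 (adjusted p 0.00985). Beside UBA7, INKA1 (FAM212A in the table) gave -0.04 (adjusted p 0.883) and TRAIP fell by 1.24 on the log2 scale (adjusted p 6.69e-08). Beside UBE2L6, TIMM10 fell by 0.90 on the log2 scale (adjusted p 8.72e-06), and SERPING1 was higher in KO 2 (1.54, adjusted p 6e-05) and lower in KO 1 (-0.82, adjusted p 0.0188). Beside USP18, PEX26 gave 0.03 (adjusted p 0.771) and TMEM191B was higher in KO 2 (0.78, adjusted p 0.0118). None of these 8 neighbours was higher in both knockout lines, a count too small to read against the 13.6% of all genes.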

How the data were processed

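RNA of 12 MIA PaCa-2 libraries (3 per line) was sequenced. The authors trimmed reads with Cutadapt, aligned them to GRCh38 with STAR, counted them with featureCounts and scaled the counts of each library by its DESeq2 size factor, so the deposited values are a signal of scaled read counts. The table held 63086 genes, 1 blank line and 4 columns of line means, the last of which were not used. Dividing by the step of each library returned whole reads for 100.0% of positive values, within 0.01 reads. KO 2 replicate 3 has a size factor of 0.991, so its step is close to that of whole numbers and is less distinct than in the other libraries. They gave the depth (26908701 to 36093563 reads in genes) and the floor of 3 reads that a count of 0 allows, for counting error only. Replicates of a line differed beyond sampling noise (chi-square per gene 4.53 to 29.5 over 12 pairs).

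The main test was limma (3.58.1, R 4.3.3) on normalised counts as log2(value + 1), with 4 line means, a trend and 15987 genes of mean at least 10. Tests were two-sided with Benjamini-Hochberg adjustment over these genes and a threshold of 0.05. It was tested on simulated data with known changes. Alternatives were edgeR 4.0.16 and DESeq2 1.42.0 on recovered reads, a pseudocount of 10, no filter or a mean of 50, equal library totals, quantile normalization, a minimum absolute log2 fold change of 1, the replicate number as a block, only the lines compared, and leaving out each library. Genes and exon lengths were matched to GENCODE and 99.1% of identifiers to gene names. The annotation release and strand setting used by the authors are not given in the sources used here.

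The 6 genes and all lists were chosen with earlier results of these data known. Named were the 6 genes, TIMP1, from each list the gene with the largest change past the threshold in KO 2 against WT, near copies of USP18 and the 3 genes most like each of the 6. Neighbours, ratios and 3 listed genes were named after values were seen. Some genes of the interferon and leukocyte lists are not reported here.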

Additional observations from a re-analysis of the deposited data

Results flagged for a closer look

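The knockout lines differed from each other for all 6 genes by limma's test of KO 2 against KO 1. On the log2 scale KO 2 was higher by 2.76 for ISG15, 2.09 for UBA7, 2.14 for UBE2L6, 2.58 for HERC5, 3.16 for HERC6 and 2.17 for USP18, in 3 of 3 libraries against each KO 1 library. Both lines carry the same label of knockout, and TIMP1 differed between them by -0.46.

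The same test separated the lines for other named genes. KO 2 was above KO 1 by 0.71 for TRIM25, 0.71 for UFM1, 1.05 for IRF9, 0.68 for STAT2, 1.41 for PPM1K and 2.13 for NAP1L5. It differed by -0.31 for HERC2, -0.36 for NAE1, -0.43 for SKP2 and -1.68 for ITGB2. Clone and knockout cannot be told apart in these differences.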

How the results depend on the processing

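For the 6 genes in 7 comparisons, 918 values were computed under alternatives, and 908 kept their direction and their side of the threshold, 9 lost the threshold and 1 reversed. The reversal was UBA7 in CRISPR Control against WT, -0.15 without CRISPR Control replicate 1, the lowest value with a library left out, with 0.31 the highest. A minimum absolute log2 fold change of 1 lowered the count of called genes to 2 for CRISPR Control against WT and to 3 for KO 1 against CRISPR Control and raised the intersection to 4, by its construction. The other 172 of 175 counts stayed within 1.5 times. Leaving out each library gave 5 to 6 called genes for KO 1 against CRISPR Control, where HERC5 was lost, 4 for CRISPR Control against WT, 2 in the intersection and 6 in the other comparisons. The cause of the lost HERC5 calls was not tested.

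Deviations from the line means correlated between -0.129 and 0.16 over 18 pairs of libraries with the same replicate number. Over 36 pairs of different number they correlated between -0.189 and 0.126. With so few libraries per line these values cannot exclude a pairing by replicate number. With the replicate block the counts were 6 for KO 1 and KO 2 against WT, 4 for CRISPR Control against WT and 2 in the intersection, and the block changed no call of the 6 genes. In KO 2 against CRISPR Control, equal library totals moved the median log2 change of all genes from -0.008 to 0.105. Few reads limit HERC6 most, and a pseudocount of 10 lowered its change in KO 2 against WT to 3.96 and in KO 1 to 1.15.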
